A study of Rattus norvegicus with 6 samples.

Results

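The genes described here are the 10 members of the insulin-like growth factor (IGF) axis named by a fixed list: the ligands *Igf1* and *Igf2*, the receptors *Igf1r* and *Igf2r*, and the binding proteins *Igfbp1* to *Igfbp6*. A gene was read from the rows whose RefSeq accession carries its symbol in the rat RefSeq gene table. All 10 had at least 1 row, of 26299 features in all, and the 3 rows of *Igf1* were averaged. They were measured in skeletal muscle RNA of 3 lower birth weight (LBW) and 3 average birth weight (ABW) pups, male Wistar rats aged 1 day, with 1 single-colour NimbleGen array per pup. The LBW pups had birth weights in percentiles 5 to 25. ABW pups are placed in percentiles 25 to 75 by their own labels and in percentiles 50 to 75 by the protocol. No growth restriction was induced in either group, and the litters of the pups are not given, so that the p-values measure the spread between these pups. The soleus and gastrocnemius were pooled for each sample in the study, and the RNA therefore holds all the cell types of the tissue. In bulk samples, fewer cells of a type and less RNA per cell cannot be told apart.

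IGF1 and IGF2 are secreted growth factors that drive growth before and after birth, and muscle makes both for its own use as well as receiving them from blood. Both act through the IGF1 receptor, a tyrosine kinase which signals through insulin receptor substrates to the PI3K-Akt-mTOR arm and through Ras to the MAPK arm. The IGF2 receptor has no kinase and removes IGF2 by carrying it to lysosomes. The binding proteins hold the ligands in blood and in the tissue, and proteases such as PAPP-A release them. *Igfbp1* is known as a liver gene that insulin represses and that is high in fasting and in growth-restricted newborns.

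In LBW muscle the ligands overlapped with the ABW values, whereas the receptors *Igf1r* and *Igf2r* and the binding proteins *Igfbp1* and *Igfbp5* were higher in every LBW pup than in any ABW pup, as were 7.27% of all features. Of these 4 genes, *Igfbp1* and *Igf1r* had an unadjusted p under 0.05 by limma. *Igfbp1* was 2.13-fold higher (95% interval 1.40 to 3.24, 3 pups per group) and *Igf1r* 1.44-fold higher (1.25 to 1.66). None of the 10 genes had an adjusted p under 0.05 by limma. The other 8 genes differed by less than their intervals could separate from 0, and those intervals ran from 0.681-fold to 1.84-fold. Across the 10 genes, 7 were higher and 3 were lower in LBW, with a median log2 difference of 0.12, beside 44.4% of all features higher and a median of -0.023.

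The start regions of *Igfbp1* and *Igf1r* are shown because these were the genes with an unadjusted p under 0.05 by limma. Each runs from 250 bases before the transcription start to 50 bases after it, 5′ to 3′ on the strand of the gene (RefSeq, build GRCr8). The *Igfbp1* window is chr14:86261027-86261326 on the plus strand, and the *Igf1r* window is chr1:130959747-130960046 on the plus strand. Capitals mark motif letters found by search on both strands. In *Igfbp1* these are CAAAACA and TATTTTG, the paired letters of the insulin response element that FoxO factors bind, and GTTAATNAT, the core of the site of the liver factor HNF1 (read on the minus strand). In *Igf1r* they are GGGCGG, the GC box.
Igfbp1: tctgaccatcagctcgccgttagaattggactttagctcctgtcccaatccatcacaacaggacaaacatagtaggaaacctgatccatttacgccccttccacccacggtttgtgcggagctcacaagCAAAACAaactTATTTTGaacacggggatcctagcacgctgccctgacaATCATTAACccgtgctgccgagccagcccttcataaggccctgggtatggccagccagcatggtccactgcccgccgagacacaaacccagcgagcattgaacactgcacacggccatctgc
Igf1r: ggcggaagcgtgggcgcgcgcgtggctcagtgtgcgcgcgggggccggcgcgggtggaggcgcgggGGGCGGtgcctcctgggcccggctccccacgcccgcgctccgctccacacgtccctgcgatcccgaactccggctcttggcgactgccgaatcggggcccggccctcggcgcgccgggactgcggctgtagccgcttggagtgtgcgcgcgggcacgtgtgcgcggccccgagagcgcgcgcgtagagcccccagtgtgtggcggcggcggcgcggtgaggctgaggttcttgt

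In the *Igfbp1* window, CAAAACA lies 121 to 115 bases and TATTTTG 110 to 104 bases before the start. Of the 33469 start regions of this length, 6.28% hold CAAAACA, 4.96% hold TATTTTG and 0.43% hold both. The only other member whose window holds CAAAACA is *Igf1*, and none but *Igfbp1* holds TATTTTG. GTTAATNAT lies 72 to 64 bases before the *Igfbp1* start and is present in 0.747% of all windows. The GC box of *Igf1r* is at 184 to 179 bases before its start and occurs in 33.1% of windows, among them those of *Igf2*, *Igf2r* and *Igfbp2*. With 78% of G and C, the *Igf1r* window is richer in these bases than 98.4% of windows, while that of *Igfbp1* has 54%. A TATA box (TATAAA, 14.2% of windows) was found only in the window of *Igfbp4*. These matches describe the letters in the windows, and binding to them was not measured here.

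The log2 values of *Igf1* were 14.35, 14.30 and 14.45 in LBW 1, 2 and 3 and 14.32, 14.34 and 14.51 in ABW 1, 2 and 3. The groups overlapped, and the highest value of each came from pup 3. The LBW mean was 14.37 ± 0.07 and the ABW mean 14.39 ± 0.11 (SD, 3 pups each), a log2 difference of -0.02 (SE 0.09, adjusted p = 0.949 by limma). The 95% interval of the fold change, 0.842 to 1.15, leaves out a change of 1.5-fold in either direction. *Igf1* is read by 3 RefSeq transcripts, and their log2 differences were -0.01 (NM_001082477), -0.02 (NM_001082478) and -0.03 (NM_178866). The transcripts overlap in sequence, so they are not 3 separate measurements of the gene.

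*Igf2* (NM_031511), the main fetal growth factor of the pair, is expressed from the paternal allele. Its log2 values were 15.12, 14.97 and 15.10 in LBW 1, 2 and 3 and 15.01, 15.01 and 14.96 in ABW 1, 2 and 3. LBW 1 and LBW 3 lay above all ABW pups and LBW 2 within them. The difference of 0.07 (SE 0.08, adjusted p = 0.791 by limma) corresponds to a fold change of 1.05 with an interval of 0.911 to 1.2. Only 0.0913% of features had a higher mean than *Igf2*, and the highest value of the table was 15.49. How far the scanner still separates levels at this end of the scale cannot be read from the deposited values. Within each pup, the *Igf2* value minus the *Igf1* value was 0.77, 0.67 and 0.65 in LBW and 0.69, 0.68 and 0.45 in ABW pups. This ligand difference was 0.09 higher in LBW, a contrast between the groups (exact permutation test, 2-sided p = 0.6), less than the SD of 0.14 among ABW pups.

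**Figure D1:**
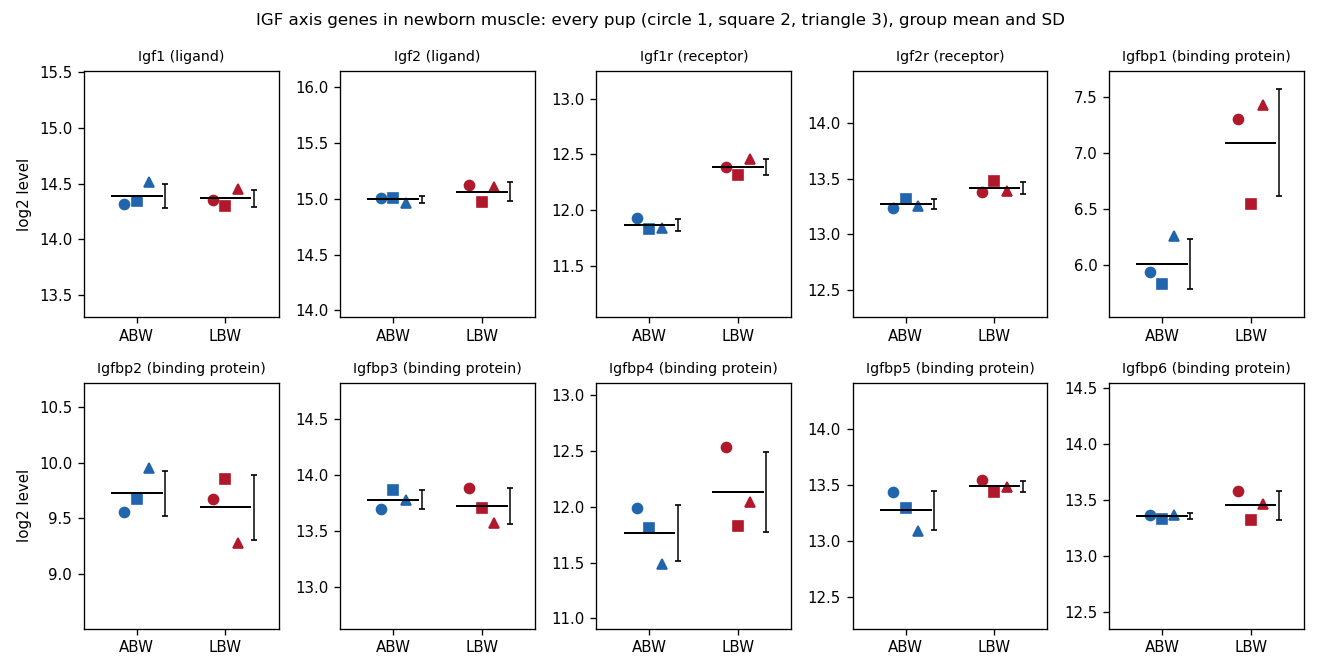
Log2 level of each IGF axis gene in every pup (y axis, each panel spans the same 2.2 log2 units around its own values), with ABW in blue and LBW in red, the group mean as a line and its SD as a bar. In the panels of *Igf1r* and *Igfbp1* all LBW pups sit clear of all ABW pups, while those of both ligands overlap.

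*Igf1r* (NM_052807) was at 12.39, 12.32 and 12.46 in LBW 1, 2 and 3, and the ABW pups were lower, with 11.93, 11.83 and 11.84. The nearest pups of the groups, LBW 2 and ABW 1, were 0.39 apart, which is more than the range of 0.14 within LBW and of 0.10 within ABW. The means were 12.39 ± 0.07 (SD, n = 3) and 11.87 ± 0.05 (SD, n = 3), a log2 difference of 0.52 (SE 0.08, unadjusted p = 0.000608 and adjusted p = 0.214 by limma). The adjusted p equals the smallest in the whole table, and 71 features, *Igf1r* included, had an unadjusted p of this size or smaller. An exact permutation test of the 6 pups gave a 2-sided p of 0.1, the smallest that 3 against 3 allow. The fold change of 1.44 is short of the 1.5-fold that the study required of a changed gene, so that *Igf1r* was not called at that threshold, although the interval reaches 1.66. Leaving out single pups kept the log2 difference between 0.49 and 0.56.

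*Igf2r* (NM_012756) was at 13.38, 13.48 and 13.39 in LBW pups and at 13.24, 13.32 and 13.25 in ABW pups 1, 2 and 3. The groups did not overlap either, but the nearest pups were only 0.06 apart, no more than the ranges within the groups (0.10 and 0.08). The log2 difference was 0.15 (SE 0.08, adjusted p = 0.507 by limma). This is 1.11-fold, with an interval of 0.969 to 1.27.

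The 6 binding proteins fall into *Igfbp1*, which passed the threshold of the study, and 5 that did not. *Igfbp1* (NM_013144) was at 7.30, 6.54 and 7.43 in LBW 1, 2 and 3 and at 5.93, 5.83 and 6.26 in ABW 1, 2 and 3. Every LBW pup was above every ABW pup, with LBW 2 the nearest to the ABW values at 0.28 above ABW 3. The LBW pups ranged over 0.89 and the ABW pups over 0.43. Its means of 7.09 ± 0.48 and 6.0 ± 0.23 (SD, n = 3) gave a log2 difference of 1.09 (SE 0.25, unadjusted p = 0.00421 and adjusted p = 0.264 by limma; exact permutation test, 2-sided p = 0.1). Fits without 1 of the pups all called it, with log2 differences between 0.92 (without LBW 3) and 1.36 (without LBW 2). Without LBW 2 its adjusted p was 0.0465 by limma, when 125 features (0.475%) passed in the whole table, and over the other alternatives it ran from 0.184 to 0.593. The signal was dim: 25% of all features had a mean below 6.21, and ABW 1 and ABW 2 lay under that value. How far it stood above the array background is unknown, which limits what the size of the difference can say.

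*Igfbp3* (NM_012588), the main carrier of IGFs in adult blood, lies next to *Igfbp1* on the same chromosome. It was at 13.89, 13.71 and 13.57 in LBW and 13.70, 13.87 and 13.78 in ABW pups 1, 2 and 3. The groups were interleaved, and the log2 difference was -0.06 (SE 0.11, adjusted p = 0.867 by limma), with a fold interval of 0.798 to 1.15. Its order over the pups was not that of its neighbour, LBW 3 having the highest *Igfbp1* and the lowest *Igfbp3* of all 6. LBW 1, next below LBW 3 in *Igfbp1* (7.30), had the highest *Igfbp3*.

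*Igfbp5* (NM_012817), a binding protein that developing muscle makes in quantity, and *Igfbp2* (NM_013122), a fetal binding protein, are the other neighbouring pair. *Igfbp5* was at 13.54, 13.44 and 13.48 in LBW and 13.44, 13.29 and 13.09 in ABW pups 1, 2 and 3. LBW 2 and ABW 1 had the same value to 2 decimals, so the LBW pups were above the ABW pups by a gap of 0.00. The log2 difference was 0.21 (SE 0.11, adjusted p = 0.493 by limma). *Igfbp2* was at 9.67, 9.85 and 9.28 in LBW and 9.56, 9.67 and 9.95 in ABW pups, with LBW 3 the lowest and ABW 3 the highest. The difference of -0.13 (SE 0.18, adjusted p = 0.814 by limma) was smaller than the SD within LBW (0.29).

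*Igfbp4* (NM_001004274), an inhibitor of IGF action that PAPP-A cleaves, had the widest interval of the 8 genes with an unadjusted p above 0.05. It was at 12.53, 11.83 and 12.04 in LBW and 11.99, 11.81 and 11.49 in ABW pups 1, 2 and 3. LBW 1 stood above the rest, and without it the log2 difference of 0.37 (SE 0.21, adjusted p = 0.531 by limma) was 0.17. *Igfbp6* (NM_013104), which prefers IGF2, was at 13.58, 13.32 and 13.46 in LBW and between 13.33 and 13.37 in all ABW pups. LBW 2 was just below the ABW pups and the other LBW pups above them, a log2 difference of 0.09 (SE 0.09, adjusted p = 0.727 by limma).

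**Figure D2:**
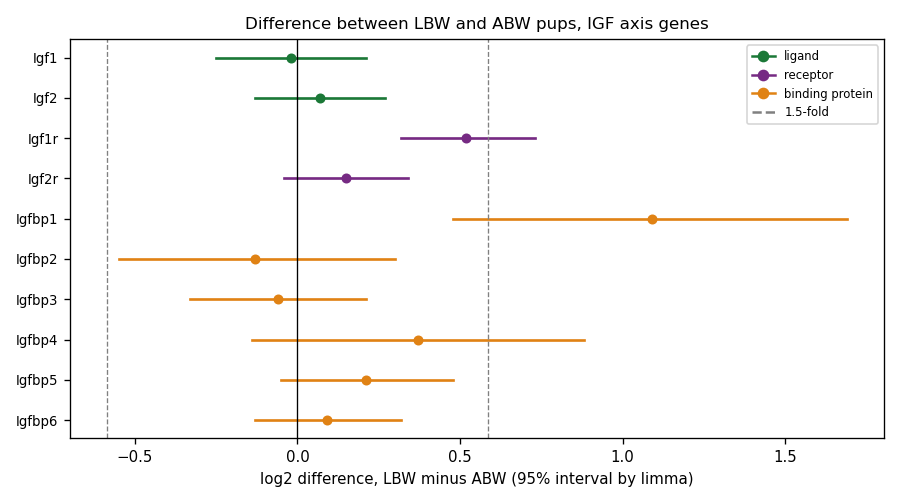
Log2 difference between LBW and ABW (x axis) for each IGF axis gene, with the 95% interval from limma over 3 pups per group. The intervals of *Igf1r* (0.32 to 0.73) and *Igfbp1* (0.48 to 1.69) lie above 0, and those of the other 8 genes include it.

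At the threshold of the study (unadjusted p under 0.05 and at least 1.5-fold), 1 of the 10 genes was called, *Igfbp1*, beside 4.27% of all features. At an unadjusted p under 0.05 alone, *Igfbp1* and *Igf1r* passed, 2 of 10, beside 12.4% of all features. The LBW and ABW values did not overlap in 4 of the 10 genes (*Igf1r*, *Igf2r*, *Igfbp1* and *Igfbp5*), beside 17.4% of all features. In all 4 the LBW pups were the higher ones, which was the case in 7.27% of all features. After adjustment 0 of the 10 genes and 0% of all features were called by limma. With so few genes, the counts at the threshold of the study and at p under 0.05 differ from the shares of all features by under 1 gene.

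The tissue was checked against marker lists. Skeletal muscle markers (6 of 8 listed had a row) had no call (*Myog* 0.25 and *Des* 0.22 differed most), and their summed linear signal ran from 148760 to 162336 in LBW and from 148220 to 156615 in ABW pups. Bone markers (8 of 9 listed had a row) were all higher in LBW and 5 were called upward. *Runx2* of this list and *Col10a1* of the cartilage list had no row named here. The study lists both among its upregulated genes. The bone list averaged 3.37, 0.68 and 4.43 log2 units above the ABW level in LBW 1, 2 and 3, and its summed signal ran from 4138 to 56728 in LBW and from 1982 to 2491 in ABW pups. Its largest differences were those of *Spp1* (5.02) and *Ibsp* (4.73), genes of the mineralizing matrix which the study also took up from these arrays. Cartilage markers (4 of 8 with a row) followed LBW 3 and LBW 1, with list means of 1.27, -0.14 and 2.16 and 1 call (*Acan*, 2.07, with *Hapln1* at 1.17). The groups overlapped in *Acan*, LBW 2 being at 8.29 beside 8.37 in ABW 1. Osteoclast markers (5 of 7 with a row) were at 1.73, 0.13 and 2.88 with 2 calls (*Mmp9* and *Acp5*), and *Mmp9* (2.89) and *Atp6v0d2* (2.68) differed most. *Mmp9* overlapped as well, with LBW 2 at 6.49 beside 6.53 in ABW 1, and *Acp5* did not. All 7 adipocyte markers with a row were lower in LBW, with 2 calls (*Lep*, -1.57, and *Pparg*, -1.20). Their list averaged -0.55, -0.51 and -1.23 in LBW and -0.59, 0.35 and 0.25 in ABW pups 1, 2 and 3, so that ABW 1 lay among the LBW pups, with *Lep* at 6.05 beside 8.09 and 8.18 in ABW 2 and 3. Endothelial, macrophage, fibroblast and tendon, and erythroid lists had no calls.

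*Igfbp1* was 1.43 above the ABW mean in LBW 3, 1.30 in LBW 1 and 0.54 in LBW 2. The bone, cartilage, osteoclast and skeletal muscle lists had this order of LBW pups too, the skeletal muscle list at 0.11, 0.06 and 0.04. In LBW 2 the bone list was at 0.68, the osteoclast list at 0.13 and the cartilage list at -0.14. *Igf1r* was at 0.59, 0.53 and 0.45 in the same order of pups, and its 3 LBW values thus spanned 0.14 while the bone list spanned several log2 units. The part of these cell types in both results was not tested. Liver markers were read because *Igfbp1* is a liver gene. All 6 had a row and 0 were called by limma at the threshold of the study, with *Serpina1* (0.25) and *Apoa1* (-0.19) differing most, and the list averaged -0.21, 0.81 and -0.44 for LBW pups 1 to 3. In the liver list the order of the LBW pups was the reverse of that of *Igfbp1*. The adipocyte, macrophage and erythroid lists had this reverse order too. *Alb*, serum albumin, was at 5.97, 8.45 and 5.21 in LBW and 6.76, 6.29 and 6.15 in ABW pups 1, 2 and 3. The part of liver RNA in the *Igfbp1* value was not tested.

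**Figure D3:**
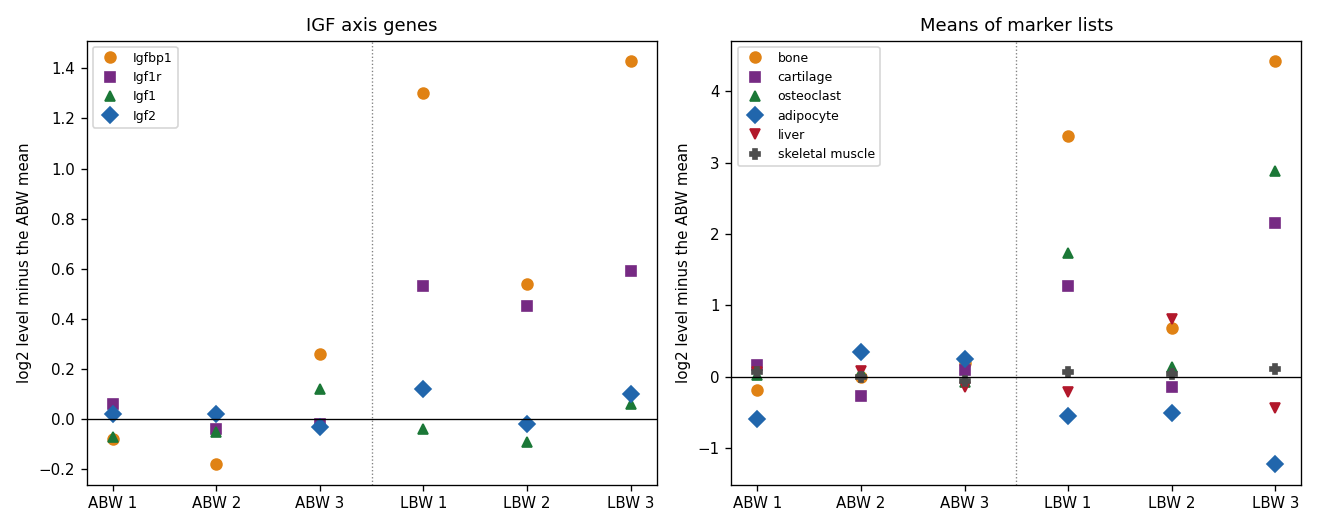
Log2 level minus the ABW mean in each pup (y axes, which differ in range) for 4 IGF axis genes (left) and for the means of 6 marker lists (right). *Igfbp1* is highest in LBW 3 (1.43) and LBW 1 (1.30). In these pups the bone list is at 4.43 and 3.37 and the skeletal muscle list at 0.11 and 0.06. The liver list is highest in LBW 2 (0.81).

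Of 77 further genes around the axis, listed by role, 53 had a row. At the threshold of the study 1 was called, *Stc2*, or 1.89% beside 4.27% of all features. An unadjusted p under 0.05 was reached by 7 genes (13.2%, beside 12.4% of all features), 5 higher and 2 lower in LBW, and 0 had an adjusted p under 0.05 by limma. The values of the groups did not overlap in 11 of the 53 genes (20.8%, beside 17.4%). The median log2 difference was 0.02, beside -0.023 over all features. Of the 53 genes, 35 (66%) were higher and 18 lower in LBW, beside 44.4% of all features higher. The shares called were near those of the whole table, while the share higher in LBW was above that of the whole table.

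Among carriers and proteases (7 of 12 with a row), *Stc2* was the gene that passed. Stanniocalcin 2 blocks PAPP-A and so the release of IGF from *Igfbp4*. It was at 8.74, 8.84 and 8.61 in LBW and 8.20, 8.33 and 7.83 in ABW pups 1, 2 and 3, with no overlap, a log2 difference of 0.61 (SE 0.15, adjusted p = 0.269 by limma). Its fold change of 1.53 lay just past the threshold, and it was no longer past it without LBW 2 (0.56) or without ABW 3 (0.46). *Stc1*, its relative, was at -0.26 (SE 0.17, adjusted p = 0.591 by limma) and overlapped. *Igfals*, the subunit that completes the circulating complex with *Igfbp3*, differed by -0.06, and *Igfbp7*, a protein related to the binding proteins, by -0.01. *Igf2bp1*, which binds the mRNA of *Igf2* and was the only gene of its list with a row, was at 10.75, 10.65 and 10.86 in LBW and 10.51, 10.43 and 10.10 in ABW pups. Every LBW value was above the ABW values, with a log2 difference of 0.41 (SE 0.13, adjusted p = 0.324 by limma).

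Insulin-type receptors and adaptors (10 of 17 with a row) had no call. *Insr*, the insulin receptor, differed by 0.19 (SE 0.19) and *Irs1*, the main adaptor of muscle, by 0.21 (SE 0.16), neither with an unadjusted p under 0.05. *Irs3*, an adaptor chiefly of rodent fat cells, was at 6.04, 6.23 and 6.18 in LBW and 6.44, 6.94 and 6.80 in ABW pups, all LBW pups below all ABW pups. Its log2 difference of -0.58 (SE 0.14, adjusted p = 0.275 by limma) was just short of 1.5-fold. All 7 adipocyte markers were lower in LBW as well, though low in ABW 1 too, and their part in the *Irs3* value was not tested. *Ptpn1*, a phosphatase that turns off these receptors, was at 0.31 (SE 0.14, adjusted p = 0.44 by limma) and overlapped.

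In the PI3K-Akt-mTOR arm (19 of 25 with a row), 11 genes were higher and 8 lower, with no call and a median log2 difference of 0.01. *Pik3r3*, a regulatory subunit of PI3K, was at 10.81, 10.62 and 10.59 in LBW and 11.30, 10.95 and 11.29 in ABW pups. It was lower in every LBW pup, with a log2 difference of -0.51 (SE 0.13, adjusted p = 0.279 by limma). *Inppl1*, a lipid phosphatase that opposes PI3K, was higher in every LBW pup, at 12.88, 12.92 and 13.19 beside 12.66, 12.72 and 12.52 (log2 difference 0.36, SE 0.12, adjusted p = 0.323 by limma). *Akt1* and *Akt2*, kinases of this arm, differed by 0.19 and 0.00, and *Mtor* by -0.00. In the Ras-MAPK arm (7 of 10 with a row, no call), the kinase *Map2k2* had the largest difference (0.29, SE 0.13, adjusted p = 0.447 by limma). Its groups overlapped, ABW 1 (12.21) being above LBW 3 (12.13).

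The growth hormone arm induces *Igf1* in liver and muscle, and 9 of its 10 genes had a row. Its receptor *Ghr* differed by -0.01 (SE 0.12). *Socs2*, a target and inhibitor of growth hormone signalling, was at 12.15, 12.11 and 11.91 in LBW and 11.77, 11.63 and 11.52 in ABW pups. All LBW pups lay above all ABW pups, with a log2 difference of 0.41 (SE 0.11, unadjusted p = 0.00813 and adjusted p = 0.287 by limma). *Socs3*, an inhibitor of cytokine and insulin signalling, had the largest difference of the arm (0.63, SE 0.26, adjusted p = 0.409 by limma). It was at 8.66, 8.88 and 9.48 in LBW and 8.73, 8.40 and 8.0 in ABW pups, so that LBW 1 fell within the ABW values.

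**Figure D4:**
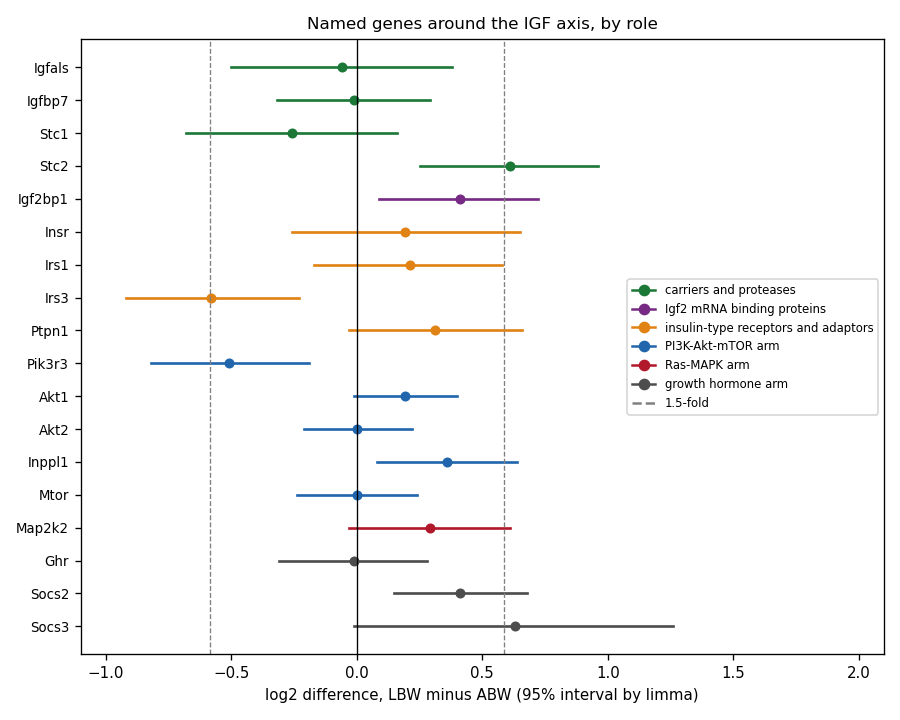
Log2 difference between LBW and ABW (x axis) with the 95% interval from limma for the genes around the IGF axis that are named in the text, coloured by role, with 1.5-fold marked by dashed lines. Most intervals include 0, and those of *Stc2*, *Igf2bp1*, *Inppl1* and *Socs2* lie above it and those of *Irs3* and *Pik3r3* below it.

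The genes whose levels over the 6 pups were most like those of *Igf1r* were *Nos1* (Pearson r = 0.9998), *Zfp365* (0.9890), *Sdc2* (0.9866), *Lpar3* (0.9854) and *Hif3a* (0.9816), of 9626 genes compared. *Nos1*, the neuronal nitric oxide synthase which muscle fibres also make, was at 8.14, 8.04 and 8.21 in LBW and 7.62, 7.52 and 7.53 in ABW pups 1, 2 and 3. *Hif3a*, a member of the hypoxia-inducible factor family, was at 10.56, 10.34 and 10.83 in LBW and 9.62, 9.20 and 8.96 in ABW pups. The groups did not overlap in any of the 5 genes, beside 17.4% of all features. This follows from picking genes for their likeness to *Igf1r*, and it is no separate result. The genes most like *Igf1* were *Prpf18*, *Pla2g2c*, *Or4b1*, *Strbp* and *Ggt5* (r from 0.9776 to 0.9932), and those most like *Igf2* were *Or2ak6*, *Or4f47*, *Arhgef11*, *Cdk16* and *Ankrd54* (0.9624 to 0.9957), all overlapping between the groups. The lists include the olfactory receptors *Or4b1*, *Or2ak6* and *Or4f47*, which were dim, with log2 values from 5.14 (*Or4f47*) to 6.71 (*Or2ak6*). With 6 points, 119 genes reached an r of at least 0.9 with *Igf1r*, 55 with *Igf1* and 67 with *Igf2*, so these correlations are a description only.

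**Figure D5:**
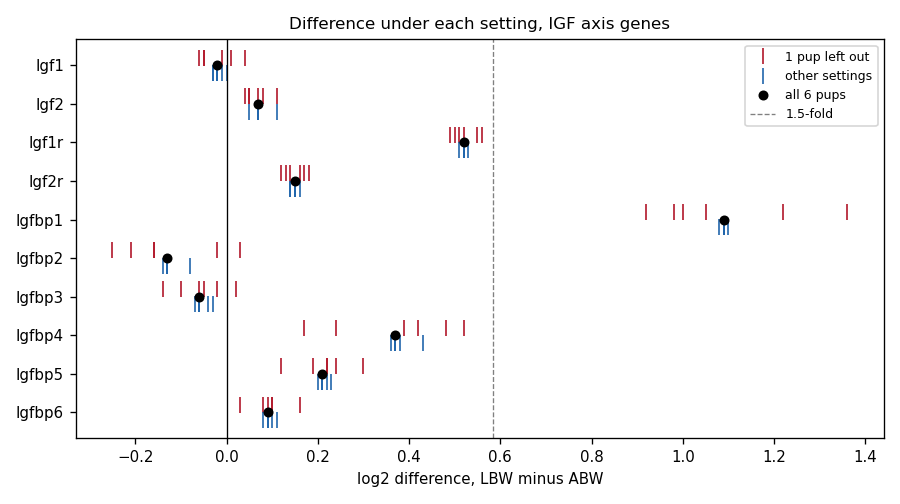
Log2 difference between LBW and ABW (x axis) of each IGF axis gene with all 6 pups (black), with 1 pup left out (red) and under the other settings (blue). *Igf1r* stays between 0.49 and 0.56, short of 1.5-fold (dashed line), *Igfbp1* between 0.92 and 1.36, and *Igf1*, *Igfbp2* and *Igfbp3* lie on both sides of 0.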

How the data were processed

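RNA of 6 pups was hybridized to NimbleGen rat expression arrays. The authors deposited log2 values, normalized in R with Bioconductor and scripts of their own, for 26419 rows, and the submitters' processing notes name RMA without a version. The background correction was not given in the sources used here. The methods name Student's test or analysis of variance for the study's data, without saying which was applied to the arrays. Rows were named through the RefSeq gene table of GRCr8 (9747 rows, 36.9%), so that a gene counted as without a row can still be on the array. Rows of a symbol were averaged and the other rows kept, which left 26299 features. LBW was compared with ABW by limma 3.58.1 (R 4.3.3; functions lmFit and eBayes, 2-sided, Benjamini-Hochberg over all features), and single genes by an exact permutation test. The limma step was tested on simulated data. Arrays have no count depth, and their number limits the precision.

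The genes, role lists, marker lists and motifs were chosen with earlier results of these data known. The text names every IGF axis gene, the genes of the role lists past the threshold, the 2 with the largest difference per role and *Insr*, *Irs1*, *Akt1*, *Akt2*, *Mtor*, *Ghr*, *Igfals*, *Igfbp7*, *Alb* and *Acp5*, chosen after their values were seen, the 2 leading genes of each marker list that stands beside a result, and the 5 genes most like *Igf1*, *Igf2* and *Igf1r*. Some genes of the role lists are counted but not reported here by name. The alternatives were the replicate block, each pup left out, quantile normalization, centring on the median, a filter on the dimmest 25% of rows, an intensity trend, robust variance, array weights, the methods' t-test, separate rows of a symbol and a threshold of 2-fold.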

Additional observations from a re-analysis of the deposited data

How the results depend on the processing

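The number of IGF axis genes past the threshold of the study was 1 (*Igfbp1*) under all alternatives, a 2-fold threshold included. With each pup left out in turn, *Igf1* ranged from -0.06 to 0.04, *Igfbp2* from -0.25 to 0.03 and *Igfbp3* from -0.14 to 0.02, so that their directions are not settled: *Igf1* turned positive without LBW 2 (0.01) and without ABW 3 (0.04), and *Igfbp2* and *Igfbp3* without LBW 3. The other 7 genes kept their direction throughout. *Igf1r* stayed short of 1.5-fold in all 15 alternative fits and had an unadjusted p under 0.05 in each. The methods' t-test gave unadjusted p-values of 0.000517 for *Igf1r*, 0.024 for *Igfbp1* and 0.0211 for *Igf2r*, and 0 features after adjustment.

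The number of wider genes past the threshold, 1, was 2 with arrays centred on their median, with the dimmest 25% of rows left out and with array weights, and 0 at 2-fold. Without any 1 pup it ranged from 0 (without ABW 3) to 3 (without ABW 1). The cause was not tested. Over all features, the deviations of same-numbered pups were little correlated (0.087, 0.104 and 0.055). A pairing that moved only some genes would not show there, so whether the numbers pair the pups is unknown. With the replicate block, *Igfbp1* stayed at 1.09 and *Igf1r* at 0.52, and 1 IGF axis gene was past the threshold. The dim signals of *Igfbp1* and *Irs3* and the bright signal of *Igf2* limit what their differences can show.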
